A study of Mus musculus with 3 samples.

Results

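The 8 genes described here encode receptors for amino acids, protein digests and tastants, with one taste G protein: Casr, Gprc6a, Gpr142, Lpar5, Tas1r1, Tas1r2, Tas1r3 and Gnat3. They are a list of gene names, with no rule on their levels, among the 24000 gene symbols that the deposited transcripts could be summed to. Messenger RNA had been read from 3 libraries of epithelial cells sorted from the upper small intestine of C57BL/6 mice, with 1 library per group. GIP-GFP holds cells of a GFP reporter for the incretin hormone GIP. Ngn3-TOMATO holds cells of male mice that carry Cre under Neurogenin3 (Ngn3) and a ROSA26 tomato indicator behind a loxP-flanked stop, so the label stays on in every descendant of a cell that once expressed Ngn3. Ngn3-negative, labelled Ngn3-neg, holds the tomato-negative epithelial cells of the same cross, which per the series' design text are enterocytes, goblet cells and Paneth cells. Cells positive for the blood cell marker CD45 were kept out of both tomato sorts. For the GIP-GFP sort, the sex, the CD45 gate and the reporter's promoter are not given in the sources used here, nor are the ages and the number of mice for any group. RNA of individual samples was pooled before each library was made, so the spread between mice was not measured, no test between groups exists and no p-value is given.

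Enteroendocrine cells are scattered hormone-secreting cells of the gut lining that sense nutrients and release peptides such as GIP, cholecystokinin and gastrin. Casr, the calcium-sensing receptor, and Gprc6a are class C G protein-coupled receptors that each have a large extracellular domain, and both respond to amino acids. Gpr142 responds to aromatic amino acids such as tryptophan. Lpar5 is a receptor for lysophosphatidic acid that has also been described as a sensor of peptone, a protein digest. Tas1r1 and Tas1r2 each pair with Tas1r3 in taste cells, the first pair detecting amino acids and the second sugars. Gnat3 encodes gustducin, the G protein alpha subunit of taste cells, which is also known from intestinal tuft cells, chemosensory cells of the epithelium.

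Over the listed transcripts lay 592.1 Mb (GIP-GFP), 1380 Mb (Ngn3-TOMATO) and 1030 Mb (Ngn3-negative) of read bases. Levels are scaled FPKM, the authors' FPKM (a read depth corrected for transcript length and library) summed per gene and divided by 1 common number. Where values for all libraries follow each other without names, library order means GIP-GFP first, Ngn3-TOMATO second and Ngn3-negative last. Scaled FPKM are per length and can be compared between genes. Against Ngn3-negative, 18 of 18 enteroendocrine markers were past 2-fold higher in Ngn3-TOMATO and 17 in GIP-GFP, beside 19.2% and 20.9% of all genes tested. Markers of other epithelial cells were present in the reporter libraries. All 9 goblet and 6 Paneth cell markers were also past 2-fold higher in Ngn3-TOMATO, and the summed level of 11 enterocyte markers was 13589, 9742 and 46563 in library order. These sums include Sis and Anpep, with transcripts that the authors' status marked as low in data, and for Sis also as failed. Over all genes tested, 65.9% of the differences past 2-fold between Ngn3-TOMATO and Ngn3-negative were increases, and this share was 53.3% with every library brought to the same total. That scaling moved the median log2 ratio of all genes from 0.03 to -0.20 in this comparison and from 0.07 to -0.14 for GIP-GFP against Ngn3-negative.

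Some of the 8 genes have more than one transcript form in the files, and for Casr, Gprc6a and Gpr142 a coding segment is present in one listed form and absent from another. The segment is shown in capitals inside 15 flanking bases of the neighboring coding sequence, 5′ to 3′ on the gene's strand, from the GENCODE M21 transcripts on mm10. The upstream windows are the 250 bases before an annotated start, from RefSeq (GRCm38.p6), and show the start that all Lpar5 reads were assigned to and the start of the gene with the largest difference, Gpr142. Capitals in a window mark CAGATG or its reverse complement CATCTG, the E-box form bound by factors such as Neurod1.
Casr exon 5, chr16:36500177-36500407, minus strand: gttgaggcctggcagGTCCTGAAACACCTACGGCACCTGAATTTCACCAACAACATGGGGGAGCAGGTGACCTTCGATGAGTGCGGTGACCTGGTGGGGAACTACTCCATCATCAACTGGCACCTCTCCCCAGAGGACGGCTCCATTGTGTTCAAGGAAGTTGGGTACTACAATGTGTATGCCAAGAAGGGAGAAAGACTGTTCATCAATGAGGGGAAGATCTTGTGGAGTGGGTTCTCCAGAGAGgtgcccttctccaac
Gprc6a exon 4, chr10:51620898-51621110, minus strand: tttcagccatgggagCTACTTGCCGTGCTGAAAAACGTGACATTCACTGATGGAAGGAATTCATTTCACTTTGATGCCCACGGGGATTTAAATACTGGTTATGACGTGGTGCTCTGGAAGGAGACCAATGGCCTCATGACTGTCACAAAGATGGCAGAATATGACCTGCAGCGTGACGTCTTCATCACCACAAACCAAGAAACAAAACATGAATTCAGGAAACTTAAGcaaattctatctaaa
Gpr142 start of exon 3, chr11:114805886-114805903, plus strand: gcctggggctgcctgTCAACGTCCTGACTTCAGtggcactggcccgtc
Gpr142 upstream window, chr11:114798674-114798923, plus strand: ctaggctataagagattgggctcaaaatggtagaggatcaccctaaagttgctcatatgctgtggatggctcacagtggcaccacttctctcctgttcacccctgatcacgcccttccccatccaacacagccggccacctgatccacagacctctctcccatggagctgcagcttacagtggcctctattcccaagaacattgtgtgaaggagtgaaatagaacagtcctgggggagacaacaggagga
Lpar5 upstream window, chr6:125067670-125067919, plus strand: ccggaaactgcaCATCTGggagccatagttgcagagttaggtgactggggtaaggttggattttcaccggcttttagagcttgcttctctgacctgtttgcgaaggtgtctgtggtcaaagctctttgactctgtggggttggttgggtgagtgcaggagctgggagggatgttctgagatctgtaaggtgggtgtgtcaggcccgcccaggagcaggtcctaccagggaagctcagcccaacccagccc

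The genes fell into 4 patterns over the libraries. Gpr142 and Gprc6a were highest in GIP-GFP, Casr was highest in Ngn3-TOMATO, Lpar5 was highest in Ngn3-negative, and Gnat3 was low in every library and lowest in GIP-GFP. The sweet and umami receptor genes Tas1r1 and Tas1r2 stayed under 1 scaled FPKM in every library, and Tas1r3 was listed at 0 in every library. Over the 13877 genes at 1 or more in any library, 29.7% had the order of Gpr142 and Gprc6a, 14.0% that of Casr, 20.3% that of Lpar5 and 9.05% that of Gnat3. Many genes thus share each order, that of Gnat3 being the least frequent, and a shared order alone says little. In all, 5 of the 8 genes reached 1 scaled FPKM in at least 1 library. By library, GIP-GFP and Ngn3-TOMATO each had 4 such genes and Ngn3-negative had 2. Of all 24000 gene symbols, 13004, 13089 and 11932 were at 1 or more in library order. The counts of the 8 genes in the reporter libraries are thus near the share over all genes. A pooled sort gives a mean over its cells, so more cells of a type and more RNA per cell cannot be told apart.

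**Figure D1:**
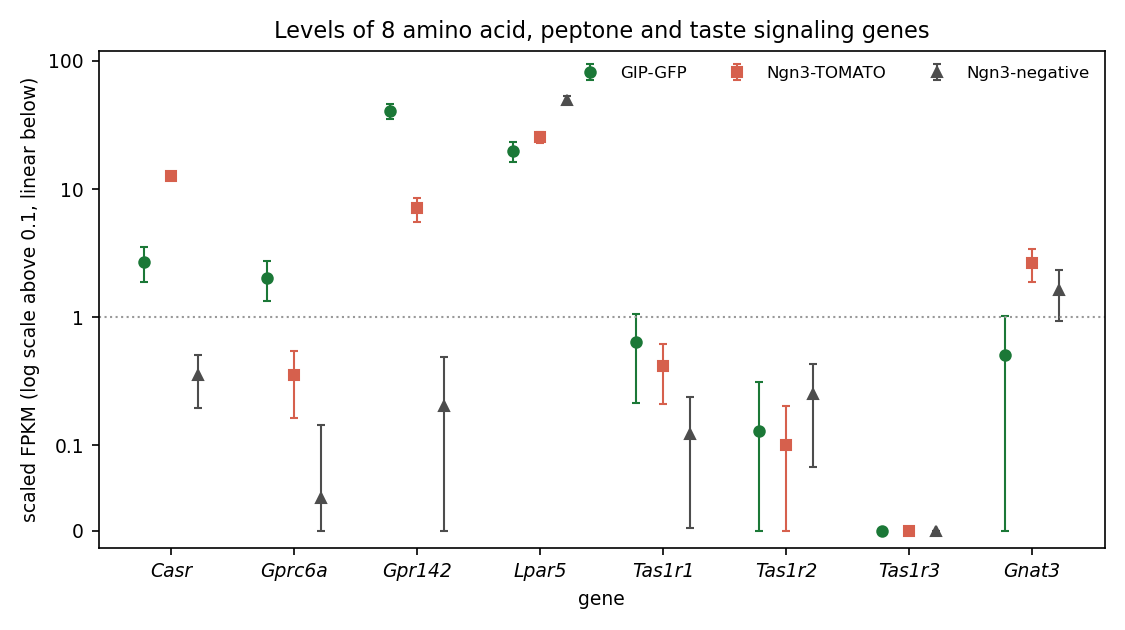
Level of each gene (scaled FPKM, log axis above 0.1 and linear below) in GIP-GFP (circles), Ngn3-TOMATO (squares) and Ngn3-negative (triangles), with bars for the 95% counting interval and a dotted line at 1. Gpr142 spans 40.6 to 0.204 between libraries, Lpar5 is above 19 in all 3, and Tas1r3 lies at 0 in all 3.

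The 3 comparisons use the log2 ratio of scaled FPKM after adding 1, for genes at 1 or more in either library, and call a gene past 2-fold. In Ngn3-TOMATO against Ngn3-negative, 4 of the 8 genes were measured, 2 were higher and 0 lower, beside 19.2% higher and 9.95% lower over 13396 genes. In GIP-GFP against Ngn3-negative, 5 were measured, 3 were higher and 1 lower, beside 20.9% higher and 13.9% lower over 13422 genes. In GIP-GFP against Ngn3-TOMATO, 5 were measured, 2 were higher and 2 lower, beside 7.94% higher and 8.76% lower over 13681 genes. The median log2 ratio of the measured genes was 1.60, 1.45 and -0.34 in these comparisons, beside 0.03, 0.07 and 0.08 over all genes tested. Casr, Gprc6a and Gpr142 were under 1 in Ngn3-negative, so where measured against it they entered only through the reporter library. The member counts and medians against Ngn3-negative are therefore tilted toward increases and do not describe all 8 genes. Between the reporter libraries, Gprc6a was under 1 in Ngn3-TOMATO and Gnat3 under 1 in GIP-GFP. Each entered only through the library where it was high, and 1 call in each direction is theirs. Their intervals, 0.78 to 1.56 and -1.84 to -0.70, reach inside 2-fold, so those counts are tilted toward differences as well. The comparisons share libraries, so they are not independent of each other. Intervals in brackets are 95% counting intervals from the authors' FPKM limits, and cover counting and read assignment within these libraries but not mice or sorts.

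**Figure D2:**
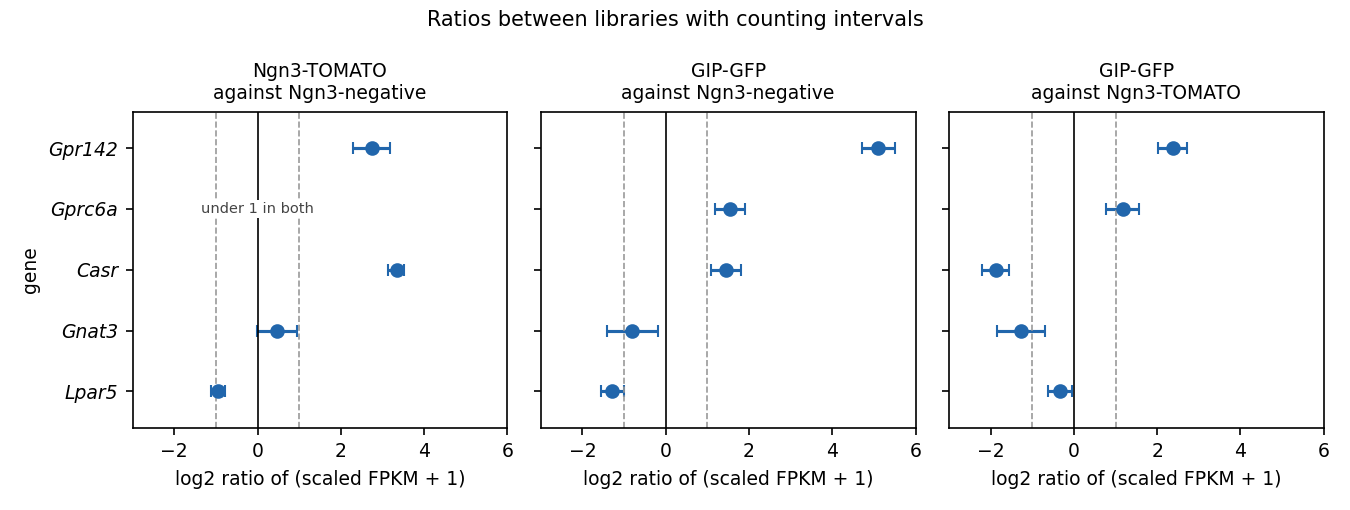
Log2 ratio of (scaled FPKM + 1) for the 5 genes that reached 1 scaled FPKM, in 3 panels for the comparisons named above them, with 95% counting intervals, a solid line at 0 and dashed lines at 2-fold. Gpr142 lies beyond the 2-fold line in each panel, Casr changes side between the outer panels, and Gprc6a was under 1 in both libraries of the left panel.

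Among the amino acid receptors, Gpr142 differed most between libraries. It stood at 40.6 scaled FPKM in GIP-GFP (34.9 to 46.2), 7.05 in Ngn3-TOMATO (5.52 to 8.57) and 0.204 in Ngn3-negative (0 to 0.492). The intervals of the 3 libraries do not overlap, and the order runs from GIP-GFP down to Ngn3-negative. If the authors' limits are taken as counting error, about 205, 85 and 2 fragments stand behind these levels. Its log2 ratio was 5.11 (4.71 to 5.51) for GIP-GFP against Ngn3-negative, 2.37 (2.03 to 2.71) for GIP-GFP against Ngn3-TOMATO and 2.74 (2.30 to 3.18) for Ngn3-TOMATO against Ngn3-negative. The level in GIP-GFP lies above 67.2% of the genes at 1 scaled FPKM or more in that library. Gpr142 stayed past 2-fold in all 3 comparisons under every other setting tried, although its log2 ratio of GIP-GFP to Ngn3-negative ranged from 3.13 to 7.06 with the pseudocount.

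Gpr142 lies on chromosome 11 (114798924 to 114806745, plus strand, mm10), and the gene next to it showed nearly the same levels. Btbd17, which encodes a BTB domain protein, is on the minus strand at 114791217 to 114795945, so that the 2 genes start 2978 bases apart and run away from each other. Btbd17 stood at 33.8, 7.69 and 0.194 scaled FPKM in library order. By Euclidean distance over the 3 log2 levels, Nudt10 (0.160) and Btbd17 (0.278) were among the 3 genes most like Gpr142. The gene on the other side, at a gap of 44406 bases, is the class C orphan receptor gene Gprc5c, at 50.5, 27.2 and 3.85. The upstream window printed for Gpr142 lies between Btbd17 and Gpr142 and holds no CAGATG or CATCTG.

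The files list forms of 1116 and 1098 bases for Gpr142, which differ by the 18 coding bases shown above, 6 codons at the start of the last exon. All of the level in GIP-GFP and in Ngn3-TOMATO was assigned to the longer form, and the trace in Ngn3-negative, about 2 fragments, to the shorter. With so few fragments in Ngn3-negative, a difference in form between the libraries was not detectable at this depth.

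Casr showed another order. It stood at 12.7 scaled FPKM in Ngn3-TOMATO (11.7 to 13.6), 2.71 in GIP-GFP (1.89 to 3.52) and 0.353 in Ngn3-negative (0.195 to 0.511). These intervals do not overlap, and the whole-lineage sort is the highest. About 692, 51 and 20 fragments stand behind these levels in the same order. The log2 ratio was 3.34 (3.14 to 3.53) for Ngn3-TOMATO against Ngn3-negative and 1.45 (1.09 to 1.81) for GIP-GFP against Ngn3-negative. GIP-GFP was lower than Ngn3-TOMATO, with a log2 ratio of -1.88 (-2.22 to -1.55). With a pseudocount of 5 the log2 ratio of GIP-GFP to Ngn3-negative was 0.53, no longer past 2-fold.

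The calcium-sensing receptor is best known from the parathyroid gland and is also known from gastrin-secreting G cells and cholecystokinin cells. The gastrin gene Gast stood at 682.6 scaled FPKM in Ngn3-TOMATO, 26.4 in GIP-GFP and was listed at 0 in Ngn3-negative, and Cck at 16125, 9366 and 185.4 in the same order. Both run in the order of Casr, as do 9 of the 18 enteroendocrine markers, Cck among them, while the other 9 were highest in GIP-GFP. Gast comes from a list of G cell and stomach markers, 6 of them at 1 or more in any library. Of these 6, 1 had the order of Casr and 4 had that of Lpar5, highest in Ngn3-negative. The part of any of these cells in the Casr level was not tested. The genes most like Casr over the 3 libraries were Vwa7 (distance 0.291), the endothelial and leukocyte adhesion gene Pecam1 (0.461) and the histone gene Hist3h2ba (0.476).

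Casr (chromosome 16, 36493696 to 36562134, minus strand) was divided between both of its listed forms. The form of 4534 bases, which holds the 231-base exon printed above, took 68.8%, 76.3% and 100% of the Casr level in library order. The form of 4303 bases, which skips it, took 31.2%, 23.7% and 0%. Both forms were therefore listed in each reporter library, the skipping form at 0.843 scaled FPKM in GIP-GFP (0.265 to 1.42). That value rests on about 9 fragments, and the split in Ngn3-negative on about 20, so a difference in form between libraries was not tested. The skipped exon is coding and 77 codons long, so that the reading frame is kept.

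Gprc6a was near the lower end of what these libraries measured. It stood at 2.04 scaled FPKM in GIP-GFP (1.34 to 2.74), 0.353 in Ngn3-TOMATO (0.164 to 0.541) and 0.0378 in Ngn3-negative (0 to 0.143), from about 34, 14 and 1 fragments. GIP-GFP lies above both other libraries without overlap. The log2 ratio was 1.55 (1.19 to 1.91) against Ngn3-negative and 1.17 (0.78 to 1.56) against Ngn3-TOMATO, and the other comparison was not made because both levels were under 1. With a pseudocount of 5 these ratios were 0.48 and 0.39, neither past 2-fold. In GIP-GFP 6.74% of the genes at 1 scaled FPKM or more were lower than Gprc6a.

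Gprc6a (chromosome 10, 51614823 to 51631458, minus strand) has forms of 2856, 2643 and 2331 bases in the files, and the full form of 2856 bases was listed at 0 in all 3 libraries. All of the level in GIP-GFP and Ngn3-TOMATO was assigned to the form of 2643 bases. Its length is that of the full form less the 213-base exon printed above, which is coding and 71 codons long. In the full form of each receptor gene, this exon of Gprc6a and the skipped exon of Casr hold the same place, just before an exon of 124 bases. In the reporter libraries the Casr form with the exon had the larger share, and the Gprc6a form without it had the whole level. The Gprc6a side rests on about 34 fragments in GIP-GFP and 14 in Ngn3-TOMATO. The single Gprc6a fragment of Ngn3-negative was assigned to the form of 2331 bases. The protein-coding gene next to Gprc6a at higher coordinates is Rfx6, a transcription factor of endocrine cells, across a gap of 46294 bases. Rfx6 stood at 1077, 207.8 and 6.68 scaled FPKM in library order. On the other side, at a smaller gap of 24305 bases, Fam162b was listed at 0 in all 3 libraries. The protein-coding genes on either side of Casr, Stfa3 and Cd86, did not share its levels. Stfa3 was listed at 0 in all 3 libraries and Cd86 stood at 0.165, 0 and 0.0329.

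**Figure D3:**
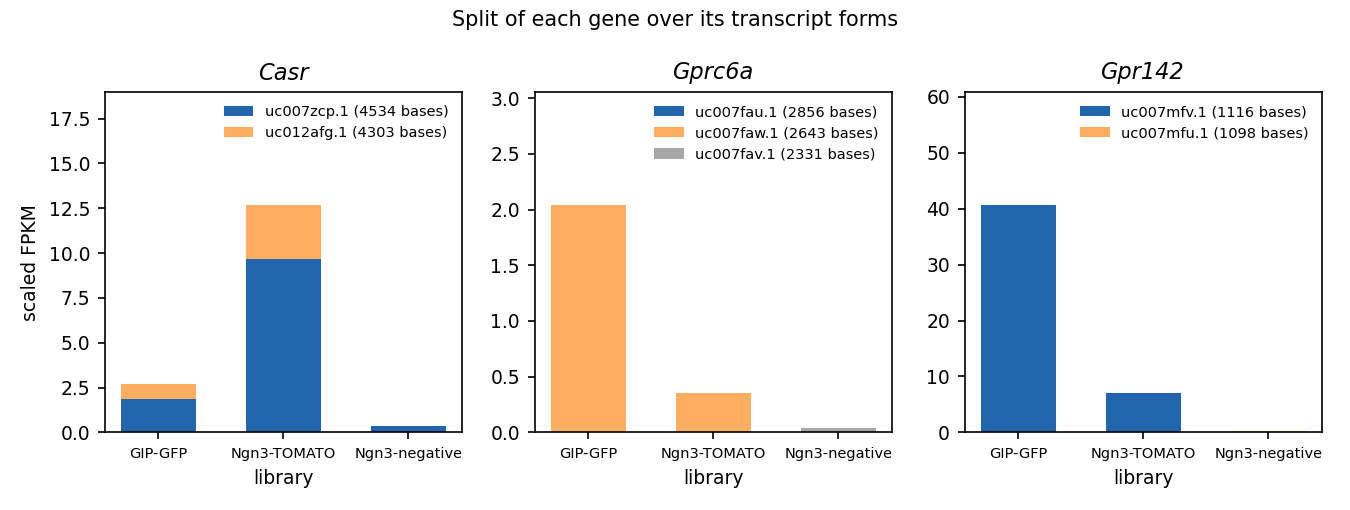
Scaled FPKM of Casr, Gprc6a and Gpr142 in each library, stacked by transcript form, with a y axis from 0 in each panel. In the reporter libraries Casr is split between both forms, Gprc6a lies in that of 2643 bases and Gpr142 in that of 1116 bases, while the Ngn3-negative bars are near 0.

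Lpar5 ran the other way. It stood at 49.6 scaled FPKM in Ngn3-negative (45.7 to 53.5), 25.3 in Ngn3-TOMATO (22.8 to 27.8) and 19.8 in GIP-GFP (16.2 to 23.4), from about 643, 404 and 121 fragments. The Ngn3-negative interval lies above both others, while those of the reporter libraries overlap. The log2 ratio to Ngn3-negative was -1.28 (-1.56 to -1.01) for GIP-GFP and -0.94 (-1.12 to -0.77) for Ngn3-TOMATO, and GIP-GFP against Ngn3-TOMATO gave -0.34 (-0.63 to -0.05). Ngn3-TOMATO thus fell short of the 2-fold call, and with libraries scaled to equal totals its log2 ratio of -1.18 passed it. Lpar5 was the most abundant of the 8 genes in Ngn3-TOMATO and Ngn3-negative, while Gpr142 was in GIP-GFP.

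Markers of other cells moved with Lpar5 in part. The summed enterocyte markers were highest in Ngn3-negative, as Lpar5 was, but were higher in GIP-GFP than in Ngn3-TOMATO, where Lpar5 was not. Blood cell markers, 10 in number and 7 of them at 1 or more in each library, summed to 303.9, 55.2 and 128.9 in library order. The single gene Gzma gave 245.3, 36.4 and 95.4 of these sums, and the pan-leukocyte gene Ptprc stood at 6.59, 3.72 and 3.77. The blood cell sum was highest in GIP-GFP, where Lpar5 was lowest. The part of these cells in the Lpar5 level was not tested. The nearest profiles to Lpar5 were those of the arrestin gene Arrb1 (distance 0.141), the cysteine dioxygenase gene Cdo1 (0.146) and Sap30l (0.175).

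Lpar5 (chromosome 6, 125067920 to 125082472, plus strand) has 2 listed forms with different start sites. In all 3 libraries the whole level was assigned to the form of 1393 bases, which starts at 125067920, and the form of 1458 bases, which starts at 125071277, was listed at 0. The window before the first of these starts is printed above and holds 1 CATCTG, 238 bases before the start. Of its relatives, Lpar1 stood at 15.2, 12.6 and 32.4 scaled FPKM in library order, also highest in Ngn3-negative. Lpar3 was highest in Ngn3-TOMATO, at 1.05, 11.9 and 3.39, Lpar2 stood at 3.21, 1.62 and 2.12, and Lpar4 was listed at 0. Of the 4 receptors for lysophosphatidic acid that were measured, 3 were lower and 0 higher in GIP-GFP than in Ngn3-negative, with a median log2 ratio of -1.07. Against Ngn3-negative, Ngn3-TOMATO had 1 higher and 1 lower, with a median of -0.60. Over all genes, 20.9% were higher and 13.9% lower in the GIP-GFP comparison, and 19.2% and 9.95% in the Ngn3-TOMATO comparison.

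The taste receptor subunits were at or near the limit of measurement. Tas1r1 stood at 0.637 scaled FPKM in GIP-GFP (0.215 to 1.06), 0.414 in Ngn3-TOMATO (0.212 to 0.615) and 0.122 in Ngn3-negative (0.00372 to 0.239), from about 9, 17 and 4 fragments. The GIP-GFP and Ngn3-negative intervals overlap slightly. With every level under 1, no call was made, although the log2 ratio to Ngn3-negative was 0.55 (0.14 to 0.95) for GIP-GFP and 0.33 (0.08 to 0.59) for Ngn3-TOMATO. Tas1r2 stood at 0.128 (0 to 0.310), 0.101 (0 to 0.203) and 0.253 (0.0741 to 0.432), from about 2, 4 and 8 fragments, and its intervals overlap as well. The Tas1r2 level was assigned to a form of 2959 bases that lacks 87 coding bases of the full form. An annotated gene on the same strand, Gm21969, overlaps Tas1r2 over 9154 bases, so reads there cannot be assigned with certainty.

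Tas1r3, the subunit that both taste receptors need, was listed at 0 in all 3 libraries. Its status was OK in each, so the quantification did not fail by the authors' own marking. Its 3′ end overlaps that of Dvl1, on the opposite strand, over 36 bases. An exact 0 in these files is not a measured absence. All 35 bitter taste receptor genes of the Tas2r family were also under 1, with 34, 34 and 33 of them listed at 0 in library order and a highest value of 0.221, for Tas2r126 in GIP-GFP.

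Gnat3 (chromosome 5, 17962570 to 18019668, plus strand) was detected at low levels. It stood at 2.63 scaled FPKM in Ngn3-TOMATO (1.88 to 3.38), 1.63 in Ngn3-negative (0.937 to 2.33) and 0.508 in GIP-GFP (0 to 1.02), from about 49, 22 and 4 fragments. The intervals of Ngn3-TOMATO and Ngn3-negative overlap, as do those of Ngn3-negative and GIP-GFP, while GIP-GFP lies below Ngn3-TOMATO without overlap. The order of Gnat3 over the libraries is therefore that of its point values. The log2 ratio was 0.46 (-0.02 to 0.95) for Ngn3-TOMATO against Ngn3-negative, -0.80 (-1.42 to -0.19) for GIP-GFP against Ngn3-negative and -1.27 (-1.84 to -0.70) for GIP-GFP against Ngn3-TOMATO. With a pseudocount of 0.1 the second of these was -1.51, and with a pseudocount of 5 the third was -0.47.

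Tuft cell genes ran in the order of Gnat3. Of 20 tuft cell markers, 18 were highest in Ngn3-TOMATO, next in Ngn3-negative and lowest in GIP-GFP, and the exceptions were Hpgds and Ltc4s. The order is not particular to tuft cells, since all 9 goblet cell and all 6 Paneth cell markers had it too. The defining genes Pou2f3, the tuft cell transcription factor, Trpm5, the taste cation channel, Dclk1 and Avil stood at 12.6, 50.5, 19.5 and 45.6 scaled FPKM in Ngn3-TOMATO. In GIP-GFP they stood at 2.44, 6.99, 3.42 and 6.28, and in Ngn3-negative at 6.61, 25.8, 9.80 and 21.3. The cytokine gene Il25 was at 1.73 in Ngn3-TOMATO and 0.641 in Ngn3-negative and was listed at 0 in GIP-GFP.

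The 20 markers together summed to 124.7, 741.6 and 402.1 in library order. Without a pseudocount, Ngn3-TOMATO had 1.61 times the Gnat3 level and 1.84 times the summed tuft markers of Ngn3-negative. GIP-GFP had 0.311 times the Gnat3 level and 0.310 times the summed tuft markers of Ngn3-negative. The Gnat3 side of the latter rests on about 4 fragments in GIP-GFP, and the part of tuft cells in the Gnat3 level was not tested. Tuft markers were lower in GIP-GFP than in Ngn3-TOMATO for 19 of 20, beside 8.76% of all genes. Their median log2 ratio was -2.30, beside 0.08 over all genes.

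**Figure D4:**
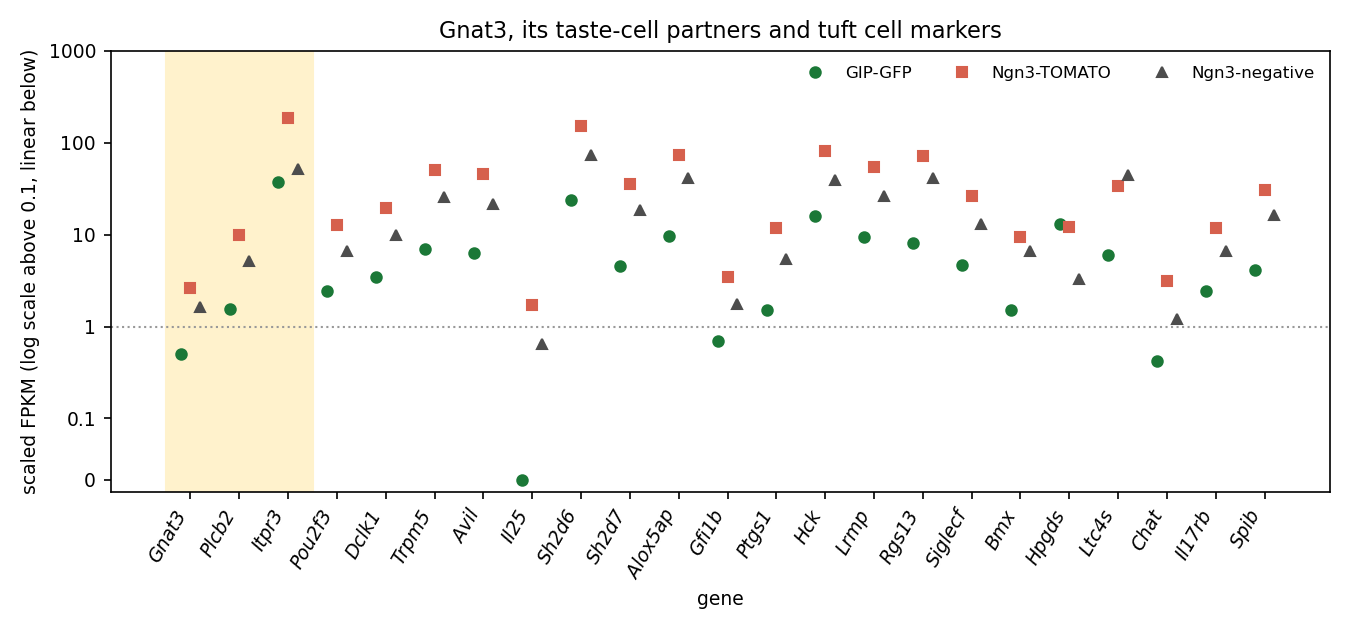
Level (scaled FPKM, log axis above 0.1 and linear below) of Gnat3, Plcb2 and Itpr3 (shaded) and of 20 tuft cell markers in GIP-GFP (circles), Ngn3-TOMATO (squares) and Ngn3-negative (triangles). In 18 of the 20 markers, as in Gnat3, the square is highest and the circle lowest.

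Downstream of taste receptors, gustducin acts with the phospholipase Plcb2, the calcium release channel Itpr3 and Trpm5. Of 13 genes of this cascade, Gnat3 and Trpm5 among them, 11 were matched and 7 measured. In GIP-GFP, 5 of the 7 were lower than in Ngn3-TOMATO and 0 higher, with a median log2 ratio of -1.39 (-0.17 over all matched genes with no minimum level), and 3 were lower than in Ngn3-negative and 0 higher. Ngn3-TOMATO had 1 higher and 0 lower against Ngn3-negative, beside 19.2% and 9.95% over all genes. For GIP-GFP, 8.76% of all genes were lower than in Ngn3-TOMATO and 13.9% lower than in Ngn3-negative. Plcb2 stood at 1.54, 9.92 and 5.14 scaled FPKM in library order, in the order of Gnat3. Itpr3 stood at 37.0, 187.2 and 52.1, the related channel gene Trpm4 at 40.03, 106.9 and 167.7, and the G protein chaperone gene Ric8b at 36.8, 28.6 and 19.6. The beta subunit gene Gnb1 stood at 334, 287.3 and 361.4. A transcript of Gnb1 had a failed quantification by the authors' status in at least 1 library. The gamma subunit gene Gng13, the usual partner of gustducin, was listed at 0 in all 3 libraries.

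Gnat3 was a minor member of the G protein alpha subunits. Of 16 such genes 13 were measured in each comparison. Against Ngn3-negative, GIP-GFP had 6 higher and 1 lower (median log2 ratio 0.98), and Ngn3-TOMATO had 4 higher and 1 lower (0.76). The shares over all genes were 20.9% higher and 13.9% lower for GIP-GFP, and 19.2% and 9.95% for Ngn3-TOMATO. The stimulatory subunit gene Gnas was the most abundant, at 1119, 783.7 and 530.3 scaled FPKM in library order. Gnao1, an inhibitory subunit of neurons and endocrine cells, stood at 277.6, 128.1 and 3.20, a log2 ratio of 6.05 (5.87 to 6.24) for GIP-GFP against Ngn3-negative. Gnai2 stood at 245.3, 243.6 and 143.5, Gnai3 at 108.4, 152.7 and 195.2, and Gna13 at 48.97, 49.7 and 69.0. Subunits through which Casr and Gpr142 are known to act on phospholipase C are Gnaq and Gna11. Gna11 was lower in both reporter libraries, at 157.2, 175 and 457.3, and Gnaq, named after its values were seen, stood at 48.6, 43.2 and 24.1.

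**Figure D5:**
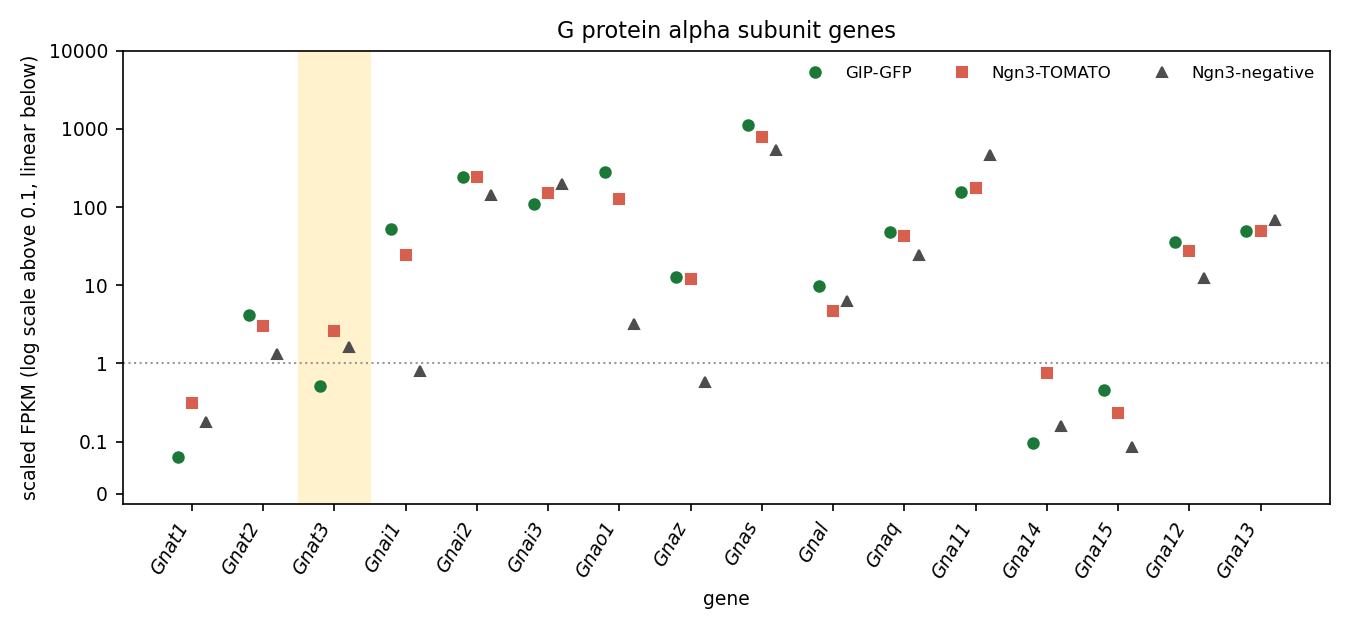
Level (scaled FPKM, log axis above 0.1 and linear below) of 16 G protein alpha subunit genes in GIP-GFP (circles), Ngn3-TOMATO (squares) and Ngn3-negative (triangles), with Gnat3 shaded. Gnao1 and Gnai1 have circles and squares far above the triangles, and Gnat3 stays under 3 in all 3 libraries.

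The phospholipase C and calcium release genes, which relay signals from Casr and Gpr142 and of which Plcb2 and Itpr3 are also in the taste cascade, lay on both sides of Ngn3-negative. Of 12 measured in GIP-GFP against Ngn3-negative, 3 were higher and 4 lower, beside 20.9% higher and 13.9% lower over all genes. Of 11 in Ngn3-TOMATO against Ngn3-negative, 5 were higher and 1 lower, beside 19.2% and 9.95%. Some of these counts are near the share over all genes. Plcb4 stood at 95.5, 35.3 and 4.34 scaled FPKM in library order, and Itpr1 at 83.3, 23.3 and 9.43, both in the order of Gpr142. Plcb3, the most abundant phospholipase of the list, stood at 123.3, 128.6 and 383.9, highest in Ngn3-negative. Prkcd, a protein kinase C gene, stood at 78.7, 147.6 and 201.5, and the calcium sensor gene Stim1 at 23.9, 48.7 and 22.1.

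Among 22 class C receptor genes, to which Casr, Gprc6a and the Tas1r genes belong, most of those measured were above Ngn3-negative. In GIP-GFP 8 of 10 measured were higher and 1 lower, with a median log2 ratio of 1.60, and Ngn3-TOMATO had 5 of 6 higher and 0 lower (median 2.94). Over all 22 genes, with no minimum level, these medians were 0.03 and 0.16. All genes tested had 20.9% higher and 13.9% lower for GIP-GFP, and 19.2% and 9.95% for Ngn3-TOMATO. Between the reporter libraries 3 of 10 were higher and 3 lower in GIP-GFP, beside 7.94% and 8.76% over all genes. The GABA receptor subunit gene Gabbr1 was the most abundant in the reporter libraries and Gprc5a in Ngn3-negative. Gabbr1 stood at 98.8, 73.9 and 5.84 scaled FPKM in library order. The glutamate receptor gene Grm4 ran in the order of Casr, at 1.01, 25.3 and 0.793, a log2 ratio of -3.71 (-4.03 to -3.40) for GIP-GFP against Ngn3-TOMATO. The orphan receptor genes Gprc5a and Gprc5b stood at 17.3, 43.3 and 36.2 and at 4.03, 3.66 and 0.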

How the data were processed

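Per the submitters' processing notes, the tools were FastQC, TopHat 1.5.0 and Cufflinks and the build mm10. The deposited files list, per the file headers, 59120 UCSC transcripts, each with its length, its coverage signal (mean read depth per base), its FPKM with a lower and an upper limit, and a status. The FPKM sum to about 10158743154 in GIP-GFP, far above what the unit gives, and in each library equal coverage times 1 constant, so the library term is not the named one. No gene names are in the files. Symbols came from GENCODE M21, ignoring strand, by ends, spliced length and at least 50% reciprocal overlap, for 50465 transcripts. Without strand, antisense overlaps are not resolved. FPKM over transcripts of 200 bases or more were summed per symbol and divided by 8076, which leaves ratios as deposited. Mitochondrial transcripts were left out and transcripts of status HIDATA (4 in Ngn3-TOMATO, 9 in Ngn3-negative) treated as missing. Genes at 1 scaled FPKM or more in either library were compared as log2 ratios with a pseudocount of 1. The FPKM limits were taken as 2 standard errors. The functions were tested on simulated data. With 1 library per group there was no test. Genes named were the 8 themselves, at most 6 of the highest level per list, fixed tuft markers and the 3 nearest profiles, of which 1 is not reported here. Gng13, Gast, Cck, Ptprc, Gnaq and neighboring genes were named after their values were seen. These genes and all lists were chosen with earlier results of these data known. Other pseudocounts, filters, scalings, transcript choices and matches were tried. Python 3.11.15, pandas 2.3.3, numpy 2.4.6 and matplotlib 3.10.9 were used.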

Additional observations from a re-analysis of the deposited data

How the results depend on the processing

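Of 121 member ratios recomputed over 9 other settings, 101 stayed inside their counting interval, 20 moved and 0 changed sign where past 2-fold. Dropping the filter, dropping the minimum length and treating failed transcripts as missing could not change a member ratio. Many of the 101 were thus fixed in advance. The member ratios that remained with both transcript ends shared equalled the main values. A change of pseudocount cannot change a sign. With a pseudocount of 0.1, 2 members were lower in GIP-GFP than in Ngn3-negative in place of 1. With a pseudocount of 5, 1 was higher in that comparison in place of 3, and 1 higher and 1 lower in GIP-GFP against Ngn3-TOMATO in place of 2 and 2. Equal totals made 1 member lower in Ngn3-TOMATO against Ngn3-negative in place of 0. When both transcript ends had to be shared, fewer transcripts were summed, Gprc6a and Gnat3 gave no ratio, 1 member reached 1 scaled FPKM in Ngn3-negative in place of 2 and 3 in each reporter library in place of 4, 2 were higher in GIP-GFP against Ngn3-negative in place of 3, and 1 was higher and 1 lower in GIP-GFP against Ngn3-TOMATO. Over all genes, a pseudocount of 5 lowered the count past 2-fold higher from 2573 to 1491 in Ngn3-TOMATO against Ngn3-negative and from 2804 to 1764 in GIP-GFP against Ngn3-negative, and the counts higher and lower in GIP-GFP against Ngn3-TOMATO to 591 and 669. With both ends shared, these counts higher were 646, 695 and 318, and the counts lower 289, 423 and 376. Treating failed transcripts as missing, chosen after seeing the data, changed no member and could not, as every member transcript had status OK. No paired analysis was possible because each group has 1 library. Depth limits Gnat3, Gprc6a, Tas1r1 and Tas1r2, which rest on few fragments.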

Other observations

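Receptors for other luminal metabolites were described from a list of 10 genes. Taar1, the trace amine receptor, stood at 13.2 scaled FPKM in Ngn3-TOMATO and was listed at 0 in GIP-GFP and Ngn3-negative. The lactate receptor gene Hcar1 had the same highest library, at 0.391, 10.9 and 0.185 in library order, and the ketone body and niacin receptor gene Hcar2 stood at 0.676, 3.05 and 0.0454. Gpbar1, the bile acid receptor, was highest in GIP-GFP, at 12.1 and 5.15 in the reporter libraries and listed at 0 in Ngn3-negative. Gpr35 ran in the order of Lpar5, at 4.57, 7.19 and 17.5, and the succinate receptor gene Sucnr1, known from tuft cells, ran in the order of Gnat3, at 0.958, 4.71 and 2.55.

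The 250 bases before each annotated start of the 8 genes, 10 windows in all, were searched on both strands. CAGATG or its reverse complement was present in 6 windows of 5 genes, Gprc6a, Lpar5, Tas1r1, Tas1r3 and Gnat3, and in 14.5% of 32817 windows of all genes. The windows of Casr, Gpr142 and Tas1r2 held none. ATGCAAAT and TATAAA were found in 0 of the 10 windows, and in 1.60% and 12.4% of all windows.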
